A study of Arabidopsis thaliana with 12 samples.

Results

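The interaction of WUS activation with cycloheximide was described across the transcripts that could be compared in SAMs of *Arabidopsis*. For each probe set of the ATH1 array, the interaction was the Dex response in the presence of Cyc (Dex+Cyc minus Cyc) minus the Dex response in its absence (Dex minus mock), on the log2 scale. A probe set was taken in when its mean signal was 100 or more in at least 3 of the 4 groups, and 13239 of the 22746 probe sets that are not array controls (58.2%) met this rule, 12686 of them in all 4 groups and 553 in exactly 3. A probe set that met it in exactly 3 groups is dim in the group left over, and its fold change there rests on a low signal. At the edge of the rule, *AT5G18840* was taken in with a third-highest group mean of 100.06 and *AT1G15840* was left out with 99.987.

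All 12 arrays came from plants of the same genotype, *ap1-1;cal1-1* with the transgene *35S::WUS-GR*, 28 days old, so mock and Cyc controls carry the transgene too. The groups were mock, 10 µM Dex, 10 µM Cyc, and 10 µM Dex with 10 µM Cyc, each for 4 h, with 3 arrays per group. Cyc and Dex+Cyc were treated in experiments independent of mock and Dex, so Cyc and experiment cannot be told apart in any comparison across that line, including the interaction. The fusion is driven by the 35S promoter in all cells, RNA was pooled from many plants per treatment, and plants without the transgene given Dex were not analysed here.

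WUS is a homeodomain transcription factor that is made in the rib meristem and maintains the stem cells above it. In the fusion with the glucocorticoid receptor domain it stays in the cytoplasm until Dex is bound, so that a nuclear WUS activity can be started at a chosen time. Cyc stops translation: a gene that WUS regulates directly can still respond in its presence, while a response that needs a newly made intermediate protein is lost. Cyc also changes many transcripts on its own, among them those with short-lived repressors or unstable mRNA, and in whole tissue a changed mRNA level per cell and a changed number of cells cannot be told apart.

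Meristem transcripts were present in the tissue. Of 7 meristem markers, 3 could be matched to a probe set, and their mean signals in mock SAMs were 2860.2 for *KNAT1*, 479 for *UFO* and 85.9 for *CLV3*. The floral organ genes *PI* and *SEP1* had mean signals of 1018 and 664 in mock, and the leaf gene *RCA* had 2754. The vascular gene *IRX3* was below 101 in each group mean. None of the 6 marker genes that entered the test had a called interaction (limma), or an unadjusted p under 0.05.

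The Dex response differed between the 2 backgrounds for few transcripts. A called difference had an adjusted p under 0.05 (limma, Benjamini-Hochberg over all 13239 probe sets). The interaction was called for 40 probe sets (0.302% of those tested), 24 of them higher (0.181%) and 16 lower (0.121%), and 1435 (10.8%) had an unadjusted p under 0.05. Each Dex response taken alone was much more widespread: 897 probe sets were upregulated (6.78%) and 1079 downregulated (8.15%) by Dex without Cyc, 14.9% in all, and 439 (3.32%) and 420 (3.17%) by Dex in the presence of Cyc, 6.49% in all. The median absolute Dex effect over all probe sets tested was 0.189 log2 units without Cyc and 0.155 with Cyc. The median standard error of the interaction was 0.20 log2 units, against 0.14 for each Dex effect. An interaction of at least 2-fold in either direction was estimated for 166 probe sets, of which 30 were called, so a difference that was not called is not shown to be absent.

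The number of calls depended on the filter and on single arrays. With all 22746 probe sets in the fit, 6 were called, of which 3 were among the 40: *NIA2*, *HAM4* and a probe set shared by *AT1G78830* and *AT1G78820*. With 1 array left out, the count was 14, 35 and 5 without Cyc 1, 2 and 3, 8, 27 and 6 without Dex 1, 2 and 3, 15, 8 and 6 without Dex+Cyc 1, 2 and 3, and 20, 106 and 11 without mock 1, 2 and 3. Mock 2 and Cyc 1 had the lowest array weights estimated by limma, 0.42 and 0.45, where Cyc 3 and mock 3 had 2.64 and 2.33, and a fit with these weights called 212 probe sets, among them all of the 40. With arrays centred on their median, 17 were called higher and 18 lower. The direction of all 40 was kept in each of these fits. Of the 40, 5 were called in all 12 fits with 1 array left out, namely the 3 above, *LBD37* and *AT3G60690*, and 22 were called in 3 or fewer. Every other gene called below lost its call without at least 1 array.

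**Figure D1:**
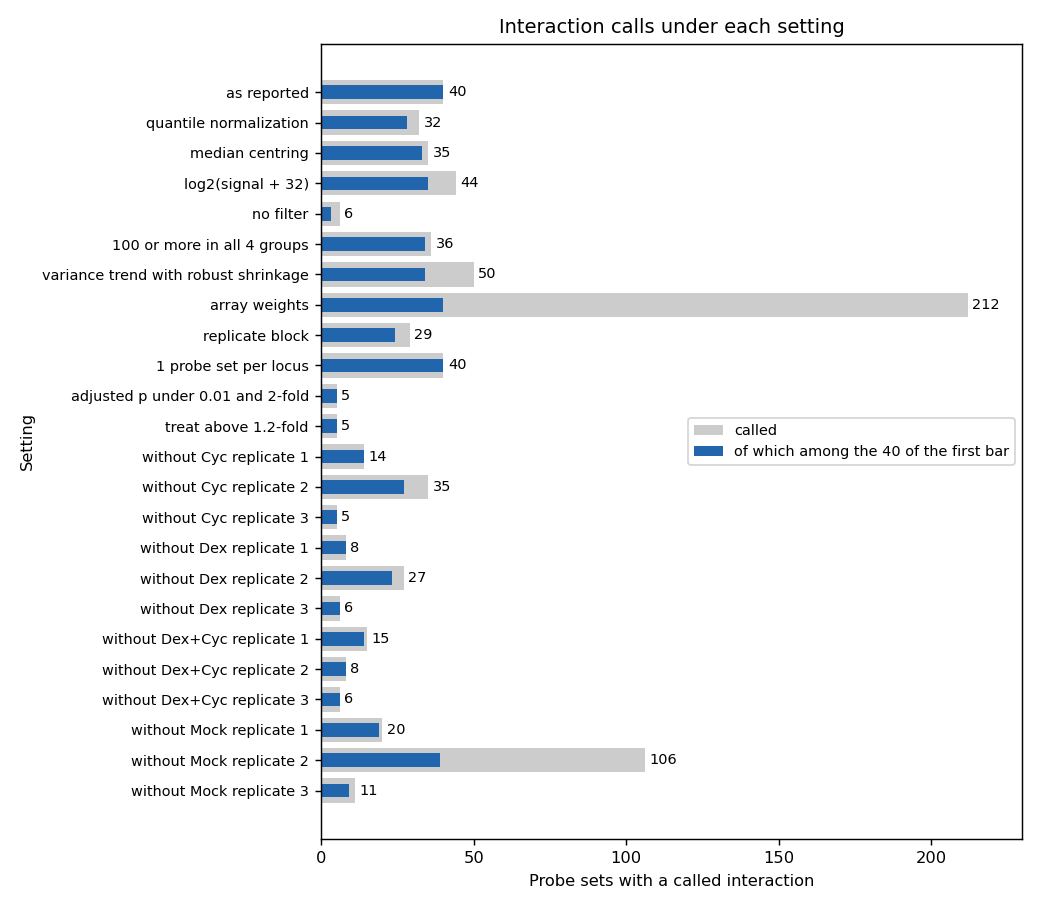
Number of probe sets with a called interaction (horizontal axis, gray bars) under the reported setting and 23 alternatives (vertical axis), with the number that is also among the 40 reported ones in blue. The count ran from 5 to 212, and was 6 with all probe sets in the fit.

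In most of the 40 a Dex response was called without Cyc and was not called, smaller or opposite in sign with it. Of the 24 called higher, 22 were downregulated by Dex without Cyc (8.15% of all tested), and 2 of the 24 were downregulated by Dex with Cyc (3.17%). Of the 16 called lower, 14 were upregulated by Dex without Cyc (6.78%), and 4 were upregulated by Dex with Cyc (3.32%). These counts come from the same arrays as the interaction and describe its form. The Dex and mock arrays did not overlap in 36 of the 40, where 33.4% of all probe sets tested were apart (17.1% higher and 16.3% lower in Dex), and the Dex+Cyc and Cyc arrays did not overlap in 25, where 25.9% were (14.9% higher and 10.9% lower in Dex+Cyc). In 27 of the 40 the Dex response was called without Cyc only, in 4 with Cyc only, in 6 in both backgrounds in the same direction and in 3 in both in opposite directions. Of all 13239 tested, it was called without Cyc only in 1413, with Cyc only in 296 and in both backgrounds in 563. In 4 of the 563 the directions were opposite. The estimates of the 2 Dex effects had opposite signs in 23 of the 40, and in 14 of these the Dex+Cyc arrays all lay on the other side of the Cyc arrays, a difference that was called in 6 of the 14. How often the signs differ over all probe sets was not counted, and they can differ readily where an effect is near zero. Seen from the other side, of the 1976 probe sets called by Dex without Cyc, 36 had a called interaction (1.82%). Of the 563 called in both backgrounds, 9 did (1.6%), where 0.302% of all tested did.

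**Figure D2:**
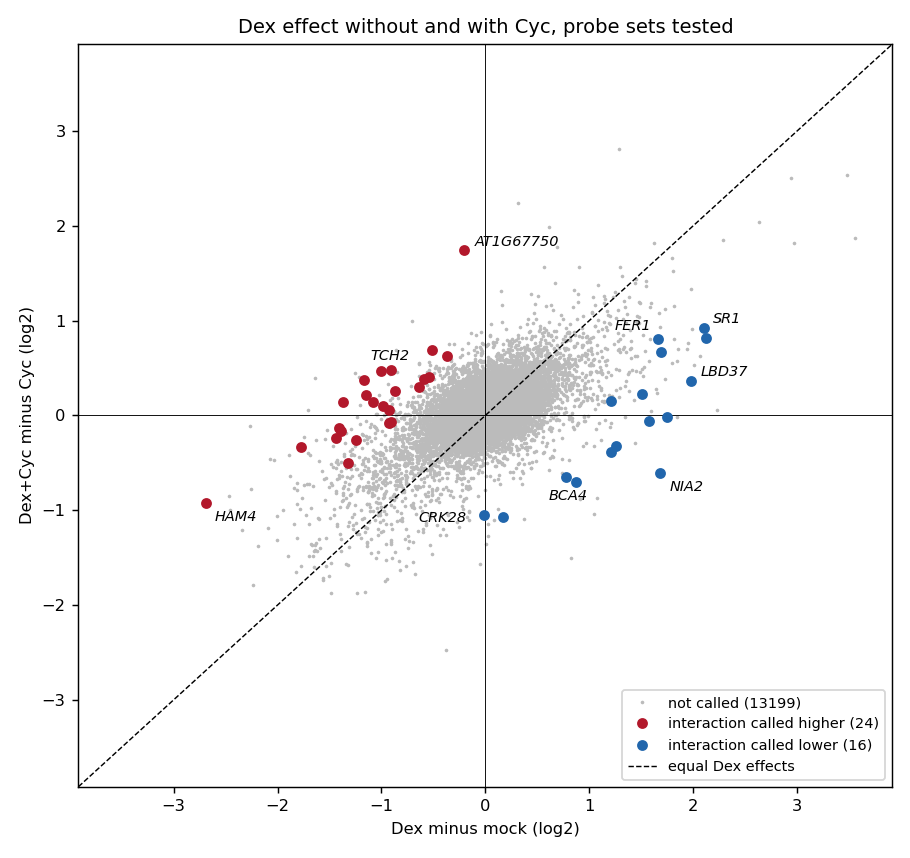
Dex effect without Cyc (Dex minus mock, log2, horizontal axis) and with Cyc (Dex+Cyc minus Cyc, log2, vertical axis) for 13239 probe sets. The 16 probe sets with an interaction called lower (blue) lie to the right of or below the dashed line of equal effects, the 24 called higher (red) lie to its left or above it, and *NIA2* and *AT1G67750* are among those farthest from it.

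Among the responses that were called only without Cyc, *NIA2* showed the lowest interaction of the named genes. *NIA2* encodes nitrate reductase, which makes the first reduction in nitrate assimilation. Its signals were 46.0, 44.3 and 46.3 in mock, 185, 144 and 117 in Dex, 2892, 2524 and 2404 in Cyc, and 2158, 1482 and 1548 in Dex+Cyc. All Dex arrays were above all mock arrays, whereas all Dex+Cyc arrays were below all Cyc arrays. Dex upregulated it 3.21-fold without Cyc, and with Cyc the log2 difference was -0.61 ± 0.17 (SE), which was not called. The interaction was -2.29 ± 0.24 log2 units (SE, n = 3 arrays per group, adjusted p = 0.00231). Its level in Cyc alone was 57.1-fold that in mock, and its mean in mock was under 100, so the rule was met by the 3 other groups.

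*LBD37* encodes a LOB-domain repressor of nitrogen-responsive genes. Its signals were 194, 255 and 268 in mock, 915, 891 and 1007 in Dex, 1527, 1230.2 and 1478 in Cyc, and 1937, 1814 and 1677 in Dex+Cyc. The Dex arrays were 3.95-fold above mock, and the Dex+Cyc arrays also lay above all Cyc arrays, by 1.29-fold on average, a difference that was not called (adjusted p = 0.15). The interaction was -1.62 ± 0.20 (adjusted p = 0.0049). The pair *NIA2* and *LBD37* was put together after their values were seen. Of 14 genes of nitrate uptake, assimilation and response looked up for comparison, 3 could be tested. All 3 took their name from lists that the study had made of Dex-responsive genes. The third was *NIA1*, the other nitrate reductase gene of *Arabidopsis*. *NIA1* had mean signals of 257 in mock, 136 in Dex, 805 in Cyc and 782 in Dex+Cyc. Dex downregulated it without Cyc (log2 -0.91, adjusted p = 0.010), and its interaction was 0.79 (95% interval 0.16 to 1.43), which was not called (adjusted p = 0.34).

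*AT3G60690*, also named *SAUR59*, belongs to the SAUR family of auxin-responsive genes. Its signals were 197, 217 and 272 in mock, 539.9, 469 and 567 in Dex, 1243, 1539 and 1395 in Cyc, and 979.5, 1033 and 1194 in Dex+Cyc. It was upregulated 2.31-fold by Dex without Cyc, and all Dex+Cyc arrays were below all Cyc arrays, with a log2 difference of -0.38 ± 0.14 that was not called. The interaction was -1.59 ± 0.20 (adjusted p = 0.0068). The probe set shared by *AT1G78830* and *AT1G78820*, which cannot be assigned to either, followed the same form: 492, 498 and 569 in mock, 1448, 1122 and 1168 in Dex, 7575, 7108 and 7704 in Cyc, and 6228, 5618 and 6119.8 in Dex+Cyc. Its interaction was -1.57 ± 0.17 (adjusted p = 0.0023).

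*HAM4* had the smallest adjusted p of the genes called higher. It encodes a GRAS-domain protein of the HAIRY MERISTEM family, whose members maintain the meristem together with WUS. Its signals were 114, 109 and 86.7 in mock, 15.7, 15 and 17.1 in Dex, 227, 233 and 199 in Cyc, and 132, 117 and 100.3 in Dex+Cyc. It was downregulated by Dex in both backgrounds, 6.46-fold without Cyc and 1.9-fold with Cyc, and the arrays were apart in both. The interaction was 1.77 ± 0.19 (adjusted p = 0.00231). The Dex signals are far below the rest of its values and under the minimum of 100, and on the linear scale it dropped by 87.5 signal units without Cyc and dropped by 103 with Cyc, the opposite order. With 32 added to each signal before log2, its interaction was 0.73 and was not called.

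**Figure D3:**
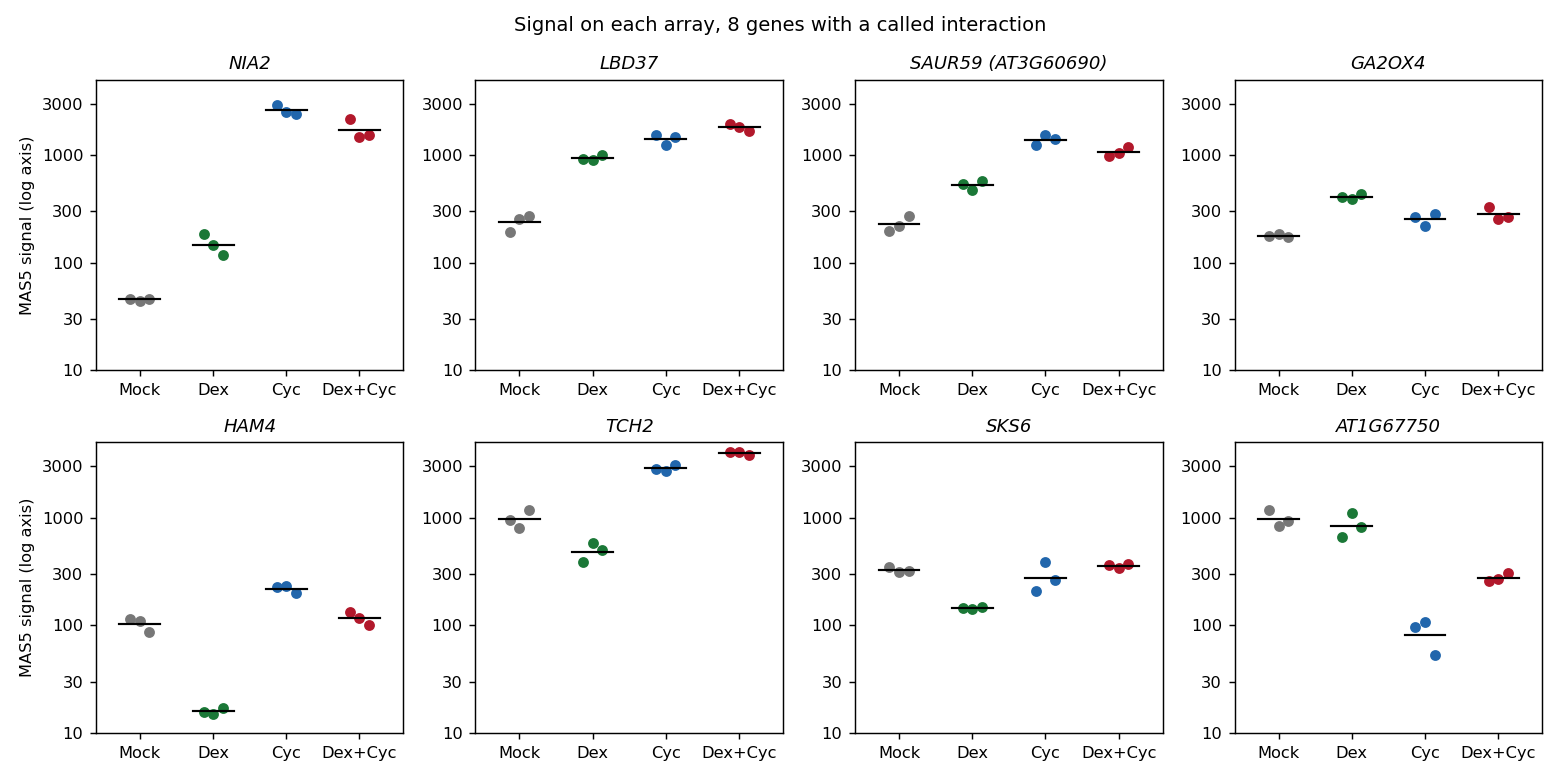
MAS5 signal (vertical axis, log scale) on each of the 12 arrays for 8 genes with a called interaction, with 3 points per group and a line at the geometric mean. *NIA2*, *LBD37*, *SAUR59* and *GA2OX4* were above mock in Dex on all arrays, and *HAM4*, *TCH2* and *SKS6* were below mock. In *AT1G67750* a Dex response was called only in the presence of Cyc.

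In further genes the Dex rise was called without Cyc only. *GA2OX4*, a gibberellin 2-oxidase that inactivates gibberellins, had signals of 175, 183 and 173 in mock, 407, 387 and 433 in Dex, 265, 218 and 281 in Cyc, and 329, 256 and 266 in Dex+Cyc. The Dex and mock arrays were apart, while Dex+Cyc and Cyc arrays overlapped, and the interaction was -1.05 ± 0.18 (adjusted p = 0.037). *CP12-2*, a small protein that binds Calvin cycle enzymes in the dark, had signals of 106, 117 and 156 in mock, 421, 313 and 551 in Dex, 194, 171 and 143 in Cyc, and 231, 141 and 140.1 in Dex+Cyc. It was upregulated 3.35-fold by Dex without Cyc, the arrays with Cyc overlapped, and the interaction was -1.76 ± 0.33 (adjusted p = 0.049). In *IP5PII*, an inositol polyphosphate 5-phosphatase, the Dex rise was 2.98-fold without Cyc and the interaction -1.63 ± 0.23 (adjusted p = 0.019), at a level in Cyc alone that was 9.4-fold that in mock. *AT2G44500* was upregulated 2.85-fold by Dex without Cyc and was 13.2-fold above mock in Cyc alone, with an interaction of -1.29 ± 0.24 (adjusted p = 0.043). Its Dex+Cyc arrays were also higher than any Cyc array, by 1.17-fold on average, which was not called.

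A second set of genes was upregulated by Dex in both backgrounds, by a smaller fold with Cyc. *SR1*, also named *CIPK14*, is a kinase that binds calcineurin B-like calcium sensors. Its signals were 172, 225 and 232 in mock, 971, 864 and 845 in Dex, 1416, 1457 and 1652 in Cyc, and 2632, 3019.7 and 2909.6 in Dex+Cyc. The arrays were apart in both backgrounds, the rise was 4.29-fold without Cyc and 1.89-fold with Cyc, and the interaction was -1.18 ± 0.19 (adjusted p = 0.023). *ERF8*, an ERF-family repressor, rose 3.23-fold and 1.59-fold, with an interaction of -1.02 ± 0.16 (adjusted p = 0.023). *AT5G64870*, a flotillin-like gene, rose 4.34-fold and 1.76-fold, with an interaction of -1.31 ± 0.24 (adjusted p = 0.043). *FER1*, an iron-storing plastid ferritin, differed from these in its level in Cyc alone: its signals were 1888, 1922 and 1803 in mock and 2175, 1896 and 1864 in Cyc, where Cyc versus mock was not called (adjusted p = 0.55). From these near-equal controls it reached 6079.8, 5218 and 6498 in Dex and 3413, 3411 and 3552 in Dex+Cyc, and its interaction was -0.85 ± 0.16 (adjusted p = 0.043).

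The remaining genes called lower involved a fall in the presence of Cyc. *BCA4*, a beta carbonic anhydrase, had signals of 114, 100 and 128 in mock, 229, 173 and 187 in Dex, 5542, 7385 and 6085 in Cyc, and 4139.5, 4289 and 3652 in Dex+Cyc. It was upregulated 1.72-fold by Dex without Cyc and downregulated 1.57-fold with Cyc, from a Cyc level 55.4-fold that of mock, and the interaction was -1.43 ± 0.21 (adjusted p = 0.019). *CRK28*, a cysteine-rich receptor-like kinase, had a Dex difference of -0.01 ± 0.14 log2 units without Cyc, which was not called, and was downregulated 2.06-fold by Dex with Cyc. Its Cyc signals were 771, 654 and 705 and its Dex+Cyc signals 376, 333 and 323, and the interaction was -1.03 ± 0.19 (adjusted p = 0.049).

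Among the 24 called higher, the most frequent form was a fall with Dex that was called without Cyc only, in 19. *TCH2*, a calmodulin-like gene induced by touch, had signals of 951, 805 and 1173 in mock, 385, 579 and 501 in Dex, 2828, 2712 and 3094 in Cyc, and 4038, 4090.3 and 3829.7 in Dex+Cyc. All Dex arrays were below mock and all Dex+Cyc arrays above Cyc, although the second difference was not called (log2 0.47 ± 0.16, adjusted p = 0.11). The interaction was 1.47 ± 0.23 (adjusted p = 0.023). *SKS6*, of the multicopper oxidase-like SKU5 family, had signals of 349, 311 and 319.7 in mock, 144, 141 and 149 in Dex, 209.8, 384 and 261 in Cyc, and 364, 338 and 369 in Dex+Cyc. It was downregulated 2.25-fold by Dex without Cyc, the Cyc arrays spread over the range of the Dex+Cyc arrays, and the interaction was 1.54 ± 0.24 (adjusted p = 0.023). Its relative *sks4* was downregulated 2.38-fold by Dex without Cyc, with an interaction of 1.00 ± 0.16 (adjusted p = 0.023).

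Several of these genes encode enzymes. *AT4G20320*, a CTP synthase, had signals of 1494, 1242 and 1295 in mock, 576, 697 and 629.8 in Dex, 4157, 4742 and 4515 in Cyc, and 4482, 5599 and 4708 in Dex+Cyc. It was downregulated 2.12-fold by Dex without Cyc, its arrays with Cyc overlapped, and the interaction was 1.22 ± 0.18 (adjusted p = 0.019). *APL2*, a large subunit of ADP-glucose pyrophosphorylase in starch synthesis, had signals of 423, 369 and 393 in mock and 240.3, 194 and 192 in Dex, with 238, 196 and 204 in Cyc and 214, 221 and 228 in Dex+Cyc. In this gene the signal was lower with Dex and with Cyc than in mock, and the arrays given both lay within the range of those given either alone, with an interaction of 0.98 ± 0.17 (adjusted p = 0.037). The beta-glucosidase *BGLU44* was downregulated 2.65-fold by Dex without Cyc, with an interaction of 1.28 ± 0.22 (adjusted p = 0.037). *DGK3*, a diacylglycerol kinase, was downregulated 2.51-fold by Dex without Cyc and 1.42-fold with Cyc, both called, with an interaction of 0.82 ± 0.15 (adjusted p = 0.039).

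Others act in regulation and signalling. *LBD18*, a LOB-domain transcription factor known from lateral root formation, had signals of 167, 204 and 207 in mock, 101, 108 and 98.1 in Dex, 211, 235 and 229 in Cyc, and 205, 220.0 and 218 in Dex+Cyc. The Dex arrays were below all others, with an interaction of 0.84 ± 0.16 (adjusted p = 0.048). The P-type cyclin gene *cycp3;1* had signals of 122, 122 and 141 in mock, 49.0, 50.2 and 49.0 in Dex, 647, 1228 and 962 in Cyc, and 939, 1184 and 913 in Dex+Cyc, with an interaction of 1.51 ± 0.27 (adjusted p = 0.039). *AT1G72180*, also named *CEPR2*, a receptor-like kinase for C-terminally encoded peptides, was downregulated 2.22-fold by Dex without Cyc, with an interaction of 1.36 ± 0.24 (adjusted p = 0.037). Both have a Dex mean under 100, as does *AT3G12710* (95.6), named next. Of the other named genes, *AT4G36010* of the thaumatin family, *AT3G12710*, *AT1G27700*, *AT3G15810*, *AT5G17760* and *AT3G62630* were each downregulated by Dex without Cyc only, by 1.5-fold to 2.71-fold, with interactions between 0.94 and 1.38. In *AT1G27700*, *AT3G15810* and *AT5G17760* the lowest Dex+Cyc array was above the highest Cyc array, with mean differences that were not called.

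In a few transcripts a Dex response was called with Cyc only, or in both backgrounds in opposite directions. *AT1G67750*, a pectate lyase, which degrades cell wall pectin, had signals of 1182, 836 and 929 in mock, 668, 1099.7 and 822 in Dex, 96.3, 108 and 52.7 in Cyc, and 257, 267 and 303 in Dex+Cyc. Mock and Dex arrays overlapped, while all Dex+Cyc arrays were above all Cyc arrays by 3.36-fold on average, from a Cyc level that was 11.9-fold below mock. Its interaction of 1.95 ± 0.35 (adjusted p = 0.039) was the highest of the 40, with a Cyc mean under 100. *AT3G06890* was downregulated 1.43-fold by Dex without Cyc and upregulated 1.61-fold with Cyc, with an interaction of 1.2 ± 0.23 (adjusted p = 0.049).

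**Figure D4:**
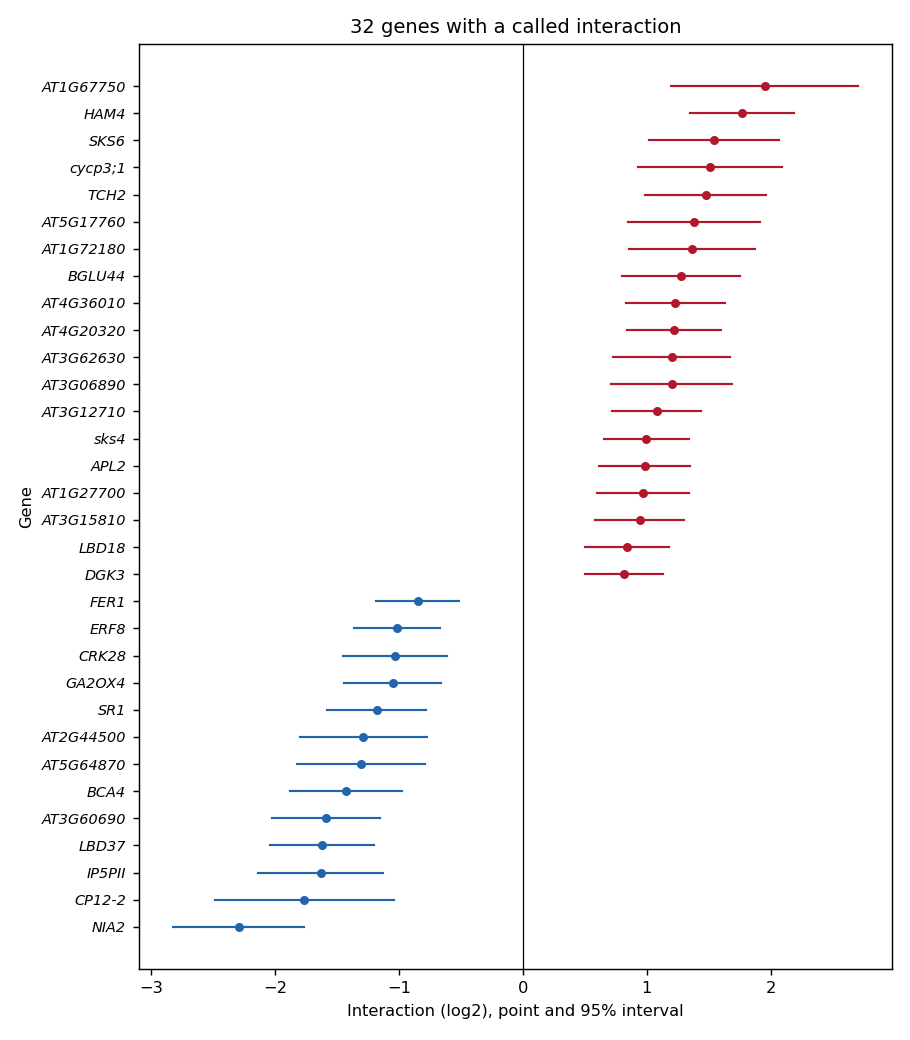
Interaction (log2, horizontal axis) with its 95% interval for the 32 genes (vertical axis) whose probe set had a called interaction and matches 1 gene. The 13 lower genes (blue) run from *NIA2* at -2.29 to *FER1* at -0.85, and the 19 higher genes (red) from *DGK3* at 0.82 to *AT1G67750* at 1.95.

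Apart from these 32 genes, the 40 include the probe set of 2 genes given above and 7 probe sets with no gene name here. Of the 7, 4 were downregulated by Dex without Cyc only, and 1 of these had signals of 18699, 23013 and 18909 in Cyc, against 709.9 to 967 in mock. The array maxima were between 18292 and 25282, so its Cyc values lie at the top of the range. Of the other 3, 1 was upregulated and 1 downregulated by Dex with Cyc only, and 1 changed in opposite directions. Of the 40, 18 took their name from lists that the study had made of Dex-responsive genes, so transcripts that change with Dex are more likely to carry a name here.

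The levels in Cyc alone differed between the 2 directions. Of the 16 called lower, 14 were higher in Cyc than in mock by the test, 0 were lower, and 13 were at least 2-fold higher, the 3 others being *GA2OX4*, *FER1* and *CP12-2*. Of the 24 called higher, 9 were higher in Cyc than in mock and 12 were lower. Over all probe sets tested, 64.6% were called between Cyc and mock, 18.7% higher and 45.9% lower in Cyc, with a median log2 difference of -0.29. With arrays centred on their median, that difference was -0.15 and the calls were 3046 higher and 4772 lower. The mock and the Cyc arrays enter both the interaction and Cyc versus mock, with opposite signs, so the 2 measures are not independent. A lower interaction therefore goes with a higher level in Cyc in part by construction. The part of the starting level in the interaction was not tested. Expressed in signal units, the difference between the 2 Dex effects had the sign of the log2 interaction in 35 of the 40 and the opposite sign in 5: *HAM4*, *SR1*, *AT5G64870*, *AT2G44500* and the unnamed probe set at the top of the range. *SR1*, for example, rose by 684 signal units without Cyc and by 1345 with Cyc.

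The genes central to the study of WUS had no called interaction, and for several the interval of the difference was wide. *CLV3*, the stem cell peptide gene, had signals of 53.1, 126 and 78.4 in mock, 738, 1043 and 954 in Dex, 51.1, 134 and 119 in Cyc, and 572, 443 and 623 in Dex+Cyc. It was upregulated in both backgrounds with all arrays apart, by 3.48 ± 0.35 and 2.53 ± 0.35 log2 units, and its interaction was -0.95 (95% interval -2.01 to 0.11, adjusted p = 0.52). *KNAT1*, a KNOX homeobox gene, had signals of 3320.1, 2648 and 2612 in mock, 915, 865 and 729 in Dex, 1295, 1520.3 and 1629 in Cyc, and 612, 544 and 353 in Dex+Cyc. It was downregulated in both, with an interaction of 0.18 (-0.39 to 0.76). The intervals of *YAB3* (0.17, -0.40 to 0.74) and the homeobox gene *BLH5* (0.20, -0.40 to 0.81) likewise included 0, and both genes were downregulated in both backgrounds.

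For 3 other such genes the interval lay above 0 although the adjusted p did not pass. *ARR7*, a type-A response regulator that dampens cytokinin signalling, had signals of 1804, 1547 and 1933 in mock, 424, 761 and 595 in Dex, 5368, 7566 and 6415 in Cyc, and 5224, 4826 and 3762 in Dex+Cyc. It was downregulated by Dex without Cyc (log2 -1.60), while with Cyc the difference was -0.49 and not called, although all Dex+Cyc arrays lay below all Cyc arrays, and its interaction was 1.12 (0.50 to 1.74, adjusted p = 0.14). The interaction of its relative *ARR15* was 1.31 (0.18 to 2.45, adjusted p = 0.38), on signals of 24.3 to 55.5 in Dex. *KAN2*, a gene of abaxial organ identity, was downregulated in both backgrounds, with an interaction of 0.53 (0.14 to 0.92, adjusted p = 0.29). *KAN1* and *AS2* did not meet the rule: *KAN1* had mean signals of 235 in mock, 75.3 in Dex, 235 in Cyc and 88.2 in Dex+Cyc, and *AS2* was above 100 only in Cyc. No probe set here was named for *WUS*.

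Gene lists were read in the same way, by counts over the members that met the rule, beside a median interaction of 0.03 over all probe sets, of which 0.302% were called and 10.8% had an unadjusted p under 0.05. Of the 1976 probe sets called by Dex without Cyc, 700 had an unadjusted interaction p under 0.05 (limma). Many list members carry a name only through lists of Dex-responsive genes, so 10.8% is a low reference for them. The lists were chosen with earlier results of these data known, so their counts are descriptive. Of 11 members of the meristem list that could be tested, *HAM4* alone was called, 7 had an unadjusted p under 0.05, and the median interaction of the 11 was 0.60. The interaction was above 0 in 9, all downregulated by Dex without Cyc. It was below 0 in 2, *CLV3* (-0.95) and *CUC1* (-0.21), both upregulated by Dex without Cyc. The *FAF* genes, which limit meristem size, were high in this list: *FAF3* had signals of 2652, 1971 and 2827 in mock, 464, 362 and 319.6 in Dex, 1919, 3991 and 2774 in Cyc, and 1133, 1874 and 1403 in Dex+Cyc. It was downregulated in both backgrounds, with an interaction of 1.76 ± 0.36 (0.97 to 2.54) that missed the threshold (adjusted p = 0.076). *FAF2* had an interaction of 1.62 (0.74 to 2.49) and *HAM3*, a further HAIRY MERISTEM gene, of 0.94 (0.47 to 1.41), neither called. Of the 11, 9 took their name from the lists of Dex-responsive genes.

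Of 8 organ polarity genes tested, all 8 were downregulated by Dex without Cyc (8.15% of all tested) and 3 with Cyc (3.17%), where the estimates of all 8 were below 0 (median -0.54). The study names *KAN2* and *YAB3* as repressed by WUS from these same arrays, and the list was chosen with earlier results known. These counts are therefore not independent of the data. None had a called interaction (limma; 3 at an unadjusted p under 0.05), with a median of 0.42 and a range of 0.17 to 1.00, where the lowest, *YAB3*, turned negative with quantile normalization. The highest was *AGO7*, an Argonaute that acts in trans-acting siRNA formation, at 1.00 (0.23 to 1.76), and *YAB5* had 0.58 (0.11 to 1.05) and *KAN3* 0.52 (-0.14 to 1.18). The Dex means of *YAB5* and *KAN3* were low, at 89.1 and 65.6. Of 10 listed type-A response regulators, 3 could be tested, 2 of them named through the lists of Dex-responsive genes. None was called (2 at an unadjusted p under 0.05), with a median of 1.12 and *ARR4* lowest at 0.32 (-0.27 to 0.91). The Dex effect on *ARR4* was 0.59 log2 units without Cyc, not called, and 0.91 with Cyc, called (limma, adjusted p = 0.015). Those on *ARR7* and *ARR15* were below 0 in both backgrounds, so the 3 do not share a direction. Of 24 listed Aux/IAA repressors of auxin signalling, 8 could be tested, and 4 of these took their name from the lists of Dex-responsive genes. None of the 8 was called (7 at an unadjusted p under 0.05) and the median was 0.62. *IAA17* was downregulated by Dex without Cyc (signals of 661, 595 and 794 in mock and 318, 291 and 284 in Dex). Its Cyc arrays at 859.6 to 1148 lay just above its Dex+Cyc arrays at 751 to 858, a difference that was not called (limma, adjusted p = 0.17). The interaction was 0.84 (0.42 to 1.26). *IAA14* had 1.27 (0.53 to 2.02), on a Dex mean of 60.1, *IAA4* 0.48 (0.07 to 0.88) and *IAA16* -0.46 (-0.81 to -0.12).

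In the lists of cold and dehydration proteins and of dehydration regulators the interaction estimates were negative, with none called (1 of 5 and 4 of 4 at an unadjusted p under 0.05). Their Dex effects were above 0, with medians of 2.29 and 1.81 log2 units without Cyc and 1.82 and 0.89 with Cyc. In the organ polarity list the medians were -0.93 and -0.54. The interaction is the difference of the 2 Dex effects, so its sign in these 3 lists restates the smaller median Dex effect under Cyc. The Dex and mock arrays enter both the interaction and Dex versus mock, with opposite signs. Genes named for a large Dex effect therefore lean to the opposite interaction in part by construction. All 5 cold and dehydration proteins tested had a negative interaction (median -0.43), and 4 of them were upregulated by Dex in both backgrounds (6.78% of all tested without Cyc and 3.32% with Cyc). *COR15B*, a chloroplast protein of cold-treated plants, had signals of 194, 163 and 147 in mock, 1222, 1039 and 1781 in Dex, 85.2, 108 and 88.4 in Cyc, and 272, 321 and 413 in Dex+Cyc. Its Dex arrays were above all others, and its interaction was -1.15 (-1.77 to -0.53, adjusted p = 0.13). *LTI30*, *COR15A* and *RD29A* had intervals that included 0. All 4 regulators of dehydration and abscisic acid responses tested were negative too (median -0.89): *RD26* at -1.24 (-1.88 to -0.61), *DREB2A* at -1.19 (-1.79 to -0.59), *ABF3* at -0.58 (-1.07 to -0.10) and *ABF4* at -0.49 (-0.96 to -0.01). All 4 took their name from the lists of Dex-responsive genes, and the mock mean of *RD26* was low, at 95.5. All 4 were upregulated by Dex without Cyc, and *RD26*, *DREB2A* and *ABF3* also with Cyc, where the arrays of *ABF4* were apart too but its rise was not called.

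Of 7 rapid stress and touch genes tested, which were all higher in Cyc than in mock (18.7% of all tested), *TCH2* was called, 2 had an unadjusted p under 0.05 and the median interaction was 0.41. *WRKY22* had -0.55 (-1.05 to -0.06), *WRKY11* 0.41 (-0.06 to 0.88) and the ERF gene at *AT4G17500*, *ERF1A*, 0.59 (-0.19 to 1.37). Of 5 genes of sugar starvation and trehalose, none was called (2 at an unadjusted p under 0.05) and the median was -0.94. Of these 5, 3 took their name from the lists of Dex-responsive genes. The trehalose phosphate phosphatase gene *TPPD* was at 1.56 (0.80 to 2.32), on a Dex mean of 68.2. The trehalose phosphate synthase genes *TPS9* and *TPS8* were at -0.94 (-1.71 to -0.17) and -0.99 (-1.98 to 0.00). *TPS8* spread from 683 to 2082 over the mock arrays, and *AKINBETA1*, at -0.71 (-1.62 to 0.21), from 507 to 1389.5. No probe set was called among 3 *GH3* auxin conjugation genes, 3 genes of jasmonate synthesis and JAZ repressors, 2 of ethylene, 4 of tryptophan, camalexin and indole glucosinolate synthesis, 2 of the circadian clock, and 18 genes that the study names from these arrays. In that order, 2, 1, 0, 3, 1 and 6 of them had an unadjusted p under 0.05. Named through the lists of Dex-responsive genes were, in the same order, 1, 2, 1, 3, 1 and 11.

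**Figure D5:**
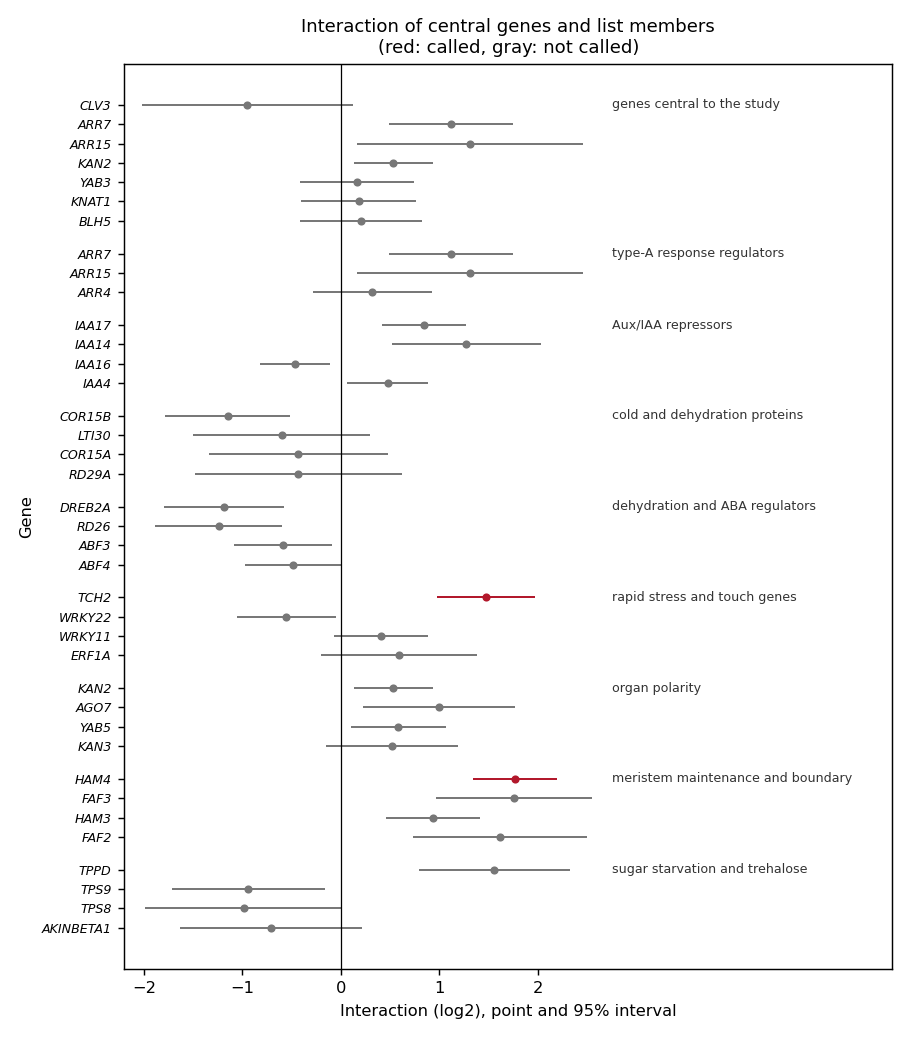
Interaction (log2, horizontal axis) with its 95% interval for the genes central to the study and for up to 4 members with the smallest p of each of 8 lists (vertical axis). *TCH2* and *HAM4* were called (red) and the others were not (gray), and the members shown of both dehydration lists lie below 0 while those of organ polarity and the meristem list lie above 0. Of all 11 meristem list members tested, 9 were above 0 and 2, *CLV3* and *CUC1*, below 0.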

How the data were processed

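The authors deposited MAS5 signals, 1 linear intensity for each probe set, scaled so that every array had a trimmed mean (2% off each tail) of 500. MAS5 and affy are named in the submitters' processing notes, without versions. No detection calls or scanner files were used, and the number of arrays, 3 per group, limits the precision. Within-group correlations of log2 signal were 0.955 to 0.985, and no 2 arrays shared a value. Nothing in the labels says that the numbered samples of a group were separate plants, and the p-values then reflect a spread among samples that may be technical.

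Of 22810 probe sets, 64 controls were left out. A single locus was assigned to 14561 of the rest, through the platform annotation, the study's array tables (628) or its lists of Dex-responsive genes (420), with symbols from RefSeq for TAIR10.1. The other probe sets are unnamed here. Signals were taken as log2, with nothing added, for probe sets with a mean of 100 or more in at least 3 groups. A limma fit of 4 group means over the 12 arrays, with eBayes and Benjamini-Hochberg adjustment, gave the interaction, Dex versus mock, Dex+Cyc versus Cyc and Cyc versus mock, and calls were made at an adjusted p under 0.05. The study's methods name no interaction test. The fit was also run on simulated data in which 200 of 13239 probe sets were changed. It called 34 of 50 at a log2 difference of 1 and 49 of 50 at 2, with 15 false calls. More calls loosen the Benjamini-Hochberg cut-off, and the reported fit had only 40. The shares found in the simulation may therefore be too high for these data. The simulated noise was independent between arrays and equally large on all of them, unlike the array weights estimated here.

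Named were all called probe sets that match 1 gene, the genes the study centres on, and up to 4 members of each described list with the smallest adjusted p. *NIA1* and the probe sets without a name were named after their values were seen. The members, lists and tests were chosen with earlier results of these data known. Alternatives were 11 settings and the 12 arrays left out in turn. R 4.3.3, limma 3.58.1, Python 3.11.15, pandas 2.3.3, numpy 2.4.6 and matplotlib 3.10.9 were used.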

Additional observations from a re-analysis of the deposited data

Results flagged for a closer look

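The Dex effect differed between the backgrounds without and with Cyc, by the interaction test, for the 32 genes described above, and these values are listed here because they are differences of one contrast between 2 conditions. The interactions called lower were -2.29 for *NIA2*, -1.76 for *CP12-2*, -1.63 for *IP5PII*, -1.62 for *LBD37*, -1.59 for *AT3G60690*, -1.43 for *BCA4*, -1.31 for *AT5G64870*, -1.29 for *AT2G44500*, -1.18 for *SR1*, -1.05 for *GA2OX4*, -1.03 for *CRK28*, -1.02 for *ERF8* and -0.85 for *FER1*. Those called higher were 1.95 for *AT1G67750*, 1.77 for *HAM4*, 1.54 for *SKS6*, 1.51 for *cycp3;1*, 1.47 for *TCH2*, 1.38 for *AT5G17760*, 1.36 for *AT1G72180*, 1.28 for *BGLU44*, 1.23 for *AT4G36010*, 1.22 for *AT4G20320*, 1.2 for *AT3G62630*, 1.2 for *AT3G06890*, 1.08 for *AT3G12710*, 1.00 for *sks4*, 0.98 for *APL2*, 0.97 for *AT1G27700*, 0.94 for *AT3G15810*, 0.84 for *LBD18* and 0.82 for *DGK3*. Groups of 3 arrays are too small to flag a single array.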

How the results depend on the processing

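The interaction calls (24 higher, 16 lower) fell to 3 and 3 with no filter on low signals, and to 1 and 4 both at the study's thresholds (adjusted p under 0.01 and 2-fold) and in a test for a difference above 1.2-fold. They rose to 131 and 81 with array weights, and the lower calls to 25 with a variance trend and robust shrinkage together. With 1 array left out, higher calls ranged from 1 to 67 and lower calls from 4 to 39. Still called were 28 of the 40 with quantile normalization, 33 with median centring, 35 with log2(signal + 32), where *HAM4* was lost, and all 34 that had 100 or more in all 4 groups. With median centring, Dex+Cyc versus Cyc had 321 higher and 527 lower. The replicate block called 29, of which 24 were among the 40. The reported fit did not pair the samples by number. Deviations of same-numbered arrays correlated at -0.0852 to 0.266 (median 0.071), above 0.1 in 5 of 18 pairs. Those of differently numbered arrays correlated at -0.236 to 0.205 (median -0.0227), above 0.1 in 3 of 36. Between Cyc and Dex+Cyc, same-numbered arrays 1, 2 and 3 correlated at 0.266, 0.215 and 0.0329, and arrays 1 and 2 crossed at -0.236 and -0.221. Whether the numbers mark pairs was not settled. With 1 array left out, a group of 2 was assumed to vary like the others. Among the named genes, *YAB3* turned to -0.020 and *BLH5* to -0.024 with quantile normalization, and *YAB3* ranged from -0.0172 to 0.38 with 1 array left out, lowest without Dex 2. The cause was not tested.

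Dex versus mock (897 higher, 1079 lower) gave 487 and 709 with no filter, 148 and 258 at the study's thresholds and 262 and 425 above 1.2-fold, 1424 higher with array weights, and 509 to 978 higher and 717 to 1110 lower with 1 array left out. Dex+Cyc versus Cyc (439 and 420) gave 142 and 218, 44 and 105, and 71 and 148 under the first 3 of these, 868 and 672 with array weights, and 145 to 518 and 240 to 471 with 1 array left out. Cyc versus mock (2474 and 6075) gave 1134 and 1458 at the study's thresholds, 4023 lower above 1.2-fold, and 2241 to 2472 and 5530.0 to 6065 with 1 array left out.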
